A study of Mus musculus with 18 samples.

Results

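The type I interferon response genes described here are 47 mouse genes chosen by symbol from a list, grouped by their known roles: transcription factors, cytosolic nucleic acid sensors, the OAS and IFIT families, ISG15 and its conjugation, interferon-induced GTPases, PARP9, PARP14 and DTX3L, other antiviral effectors, and other induced genes. All 47 were found among the 30452 genes of the table, and 38 of them were among the 11936 genes that reached 1 FPKM (fragments per kilobase of transcript, scaled to library depth) in at least 3 libraries and were tested. RNA was sequenced from MC3T3-E1, an established line of mouse pre-osteoblasts, seeded at 20000 per well and cultured for 5 days on membrane discs of 15 mm diameter. The membranes were PLLA, a biodegradable polyester, PLLA carrying zinc oxide (PLLA/ZnO), and the same composite with collagen (PLLA/ZnO@Col). Cells on each membrane received no ultrasound (-US) or 10 min of ultrasound daily (+US), giving 6 groups of 3 libraries with 48307580 to 78039543 counts each. The 2 PLLA/ZnO@Col groups are called collagen groups and the other 4 uncoated groups. The labels name a single cell line, and no group was grown on plastic in the samples analysed here. Because the labels do not state that replicates were separate cultures, each p-value refers to the spread between these libraries, which may be technical.

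Type I interferons bind a receptor of the subunits IFNAR1 and IFNAR2, which carry the kinases TYK2 and JAK1. Signalling through them activates the ISGF3 complex, which contains STAT2 and IRF9 and binds interferon-stimulated response elements in the promoters of induced genes. The induced proteins bind viral RNA, modify proteins with ISG15, restrict virus release or degrade nucleic acids. Many are also present without infection, since low, tonic interferon signalling maintains a basal level in many cell types.

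The promoters were searched for the core of that element because most members were lower on collagen. RefSeq promoter windows (GRCm38.p6, 250 bases before the start and 50 after it) were matched for 36 of the 47 members by symbol. The motif GAAA, any 2 bases and GAAA again, searched on both strands with overlapping matches counted, occurred in 18 of the 36 (50%), in 1079 of 27025 genes of the promoter table (3.99%) and in 315 of the 8540 tested genes that matched it (3.69%). Of the members that passed the collagen test described below, 8 of 15 held the motif, beside 7 of 16 that were tested and did not pass, and 3 of 5 that were not tested. The windows shown are those of 7 members that fell on collagen, together with that of Isg15, the ubiquitin-like modifier gene of the response, which did not pass. Each is written 5′ to 3′ on the strand of its gene, with the motif or its reverse complement in capitals.
Ifit1 (chr19:34640770-34640828, + strand): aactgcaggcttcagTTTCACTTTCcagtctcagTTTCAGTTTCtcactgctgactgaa
Ifit3 (chr19:34583358-34583397, + strand): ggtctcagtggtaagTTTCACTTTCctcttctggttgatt
Ifit3 (chr19:34583392-34583431, + strand): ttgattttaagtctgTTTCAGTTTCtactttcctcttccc
Ifit3b (chr19:34607754-34607793, + strand): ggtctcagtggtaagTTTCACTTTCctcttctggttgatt
Ifit3b (chr19:34607788-34607827, + strand): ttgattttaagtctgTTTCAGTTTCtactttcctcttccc
Oas1a (chr5:120907526-120907560, - strand): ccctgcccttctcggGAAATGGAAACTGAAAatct
Gbp3 (chr3:142559984-142560029, + strand): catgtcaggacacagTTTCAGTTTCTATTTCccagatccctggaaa
Gbp2 (chr3:142620589-142620628, + strand): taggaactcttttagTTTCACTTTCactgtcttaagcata
Bst2 (chr8:71537572-71537617, - strand): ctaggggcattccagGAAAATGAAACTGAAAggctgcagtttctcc
Isg15 (chr4:156200860-156200911, - strand): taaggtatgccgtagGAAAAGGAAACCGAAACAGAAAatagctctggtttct
In Isg15 the motif lay 3 times in overlap, with its first match 78 bases before the start. Ifit1 held it in 2 separate places, and in Bst2, Oas1a and Gbp3 2 matches overlapped. The windows of Ifit3 and Ifit3b were identical, within a stretch of 169 identical bases among the 250 before the start. A match describes letters only and does not show that a factor binds.

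Some libraries stood apart, and most of them were collagen libraries. On collagen, replicates 1 and 3 of the -US group and replicate 1 of the +US group had 1.05% to 2.2% of the mean summed FPKM of 4 Y-linked genes in PLLA -US, and Thy1, a mesenchymal surface marker, at 0.0709 to 0.128 FPKM. In 4 ultrasound libraries, the third replicate on PLLA and on PLLA/ZnO and replicates 2 and 3 on collagen, the Y-linked sum was at 14.5% to 34.7%, with 1.57% to 1.87% of reads from mitochondrial genes. The other 11 libraries, 10 of them uncoated, were at 59.7% to 124%, with 2.31% to 4.54% mitochondrial reads and Thy1 at 2.55 to 4.89 FPKM. No uncoated library lacked Y-linked reads, so for those 3 libraries collagen and whatever else sets them apart cannot be told apart. The pre-osteoblast genes Col1a1 (500 to 1165 FPKM), Spp1 (637 to 3609) and Runx2 (6.22 to 9.54) were present in every library, while the differentiation markers Alpl (at most 0.178) and Bglap (at most 0.626) were near 0. The sum of 12 macrophage and myeloid markers was 18.2 to 52.5 FPKM on collagen and 18.5 to 46 elsewhere. Of these, Ptprc, Adgre1 and C1qa did not exceed 0.0935, 0.0813 and 0.24 FPKM, and Lyz2 (5 to 26.8) and Cd14 (9.87 to 17.2) made up most of the sum. Other markers of the list were present: Cd68 was at 0.381 to 5.97 FPKM and Csf1r at 0.053 to 1.68, and Itgam, Tyrobp and Fcer1g reached 1.64, 1.4 and 1.16. Itgam divided the libraries, with 330 to 493 counts in 12 and 0 to 4 counts in 6. Ptprc (41 to 107 counts beside 0 to 4) and Csf1r (379 to 577 beside 21 to 114) divided them in the same way, whereas Cd14 and Mrc1 did not. The 6 were PLLA/ZnO -US replicate 3, PLLA/ZnO@Col -US replicate 2, the third replicate of PLLA +US and of PLLA/ZnO +US, and PLLA/ZnO@Col +US replicates 2 and 3, and their marker sum was 18.2 to 25.4, beside 40.4 to 52.5 in the 12. The 3 libraries lacking Y-linked reads were among the 12, at 46.3 to 52.5. The part of these markers in the results was not tested.

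The response genes were lower on collagen. Against the mean of the 4 uncoated groups, 37 of the 38 tested members were lower in the mean of the 2 collagen groups, with a median log2 fold change of -0.62, whereas 47.9% of all tested genes were lower and 52.1% higher, with a median of 0.02. By edgeR's quasi-likelihood test with Benjamini-Hochberg adjustment over all tested genes, 18 members fell and 0 rose, beside 1.54% of all tested genes that fell and 4.42% that rose, 5.97% in all. The 18 fell 1.25- to 3.4-fold: Irf9, Ddx58, Zbp1, Oas1a, Oasl2, Ifit1, Ifit3, Ifit3b, Uba7, Gbp2, Gbp3, Parp9, Samhd1, Bst2, Rtp4, Sp100, Xaf1 and Ifi44. A further 10 were lower at an unadjusted p under 0.05, a level that 7.99% of all tested genes met downward and 16.9% upward. In bulk RNA, fewer cells of a type and less RNA per cell cannot be told apart.

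The filter bears on this count. Ifit3b, Usp18, Herc6, Gbp3, Gbp7 and Ifi44 reached 1 FPKM in fewer than 3 of the 6 collagen libraries and so passed it through the uncoated groups, and 0 members passed only through collagen. Of the 32 members that reached 1 FPKM in at least 3 collagen libraries, 15 fell, beside 1.34% of the 11171 tested genes that met the same condition and fell and 4.73% that rose. Fitted with no filter, 46 of all 47 members were lower (median -0.68), beside 59.8% of the 30452 genes (median -0.14). In that fit 13 of the 47 fell, beside 0.158% of genes that fell and 0.167% that rose.

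**Figure D1:**
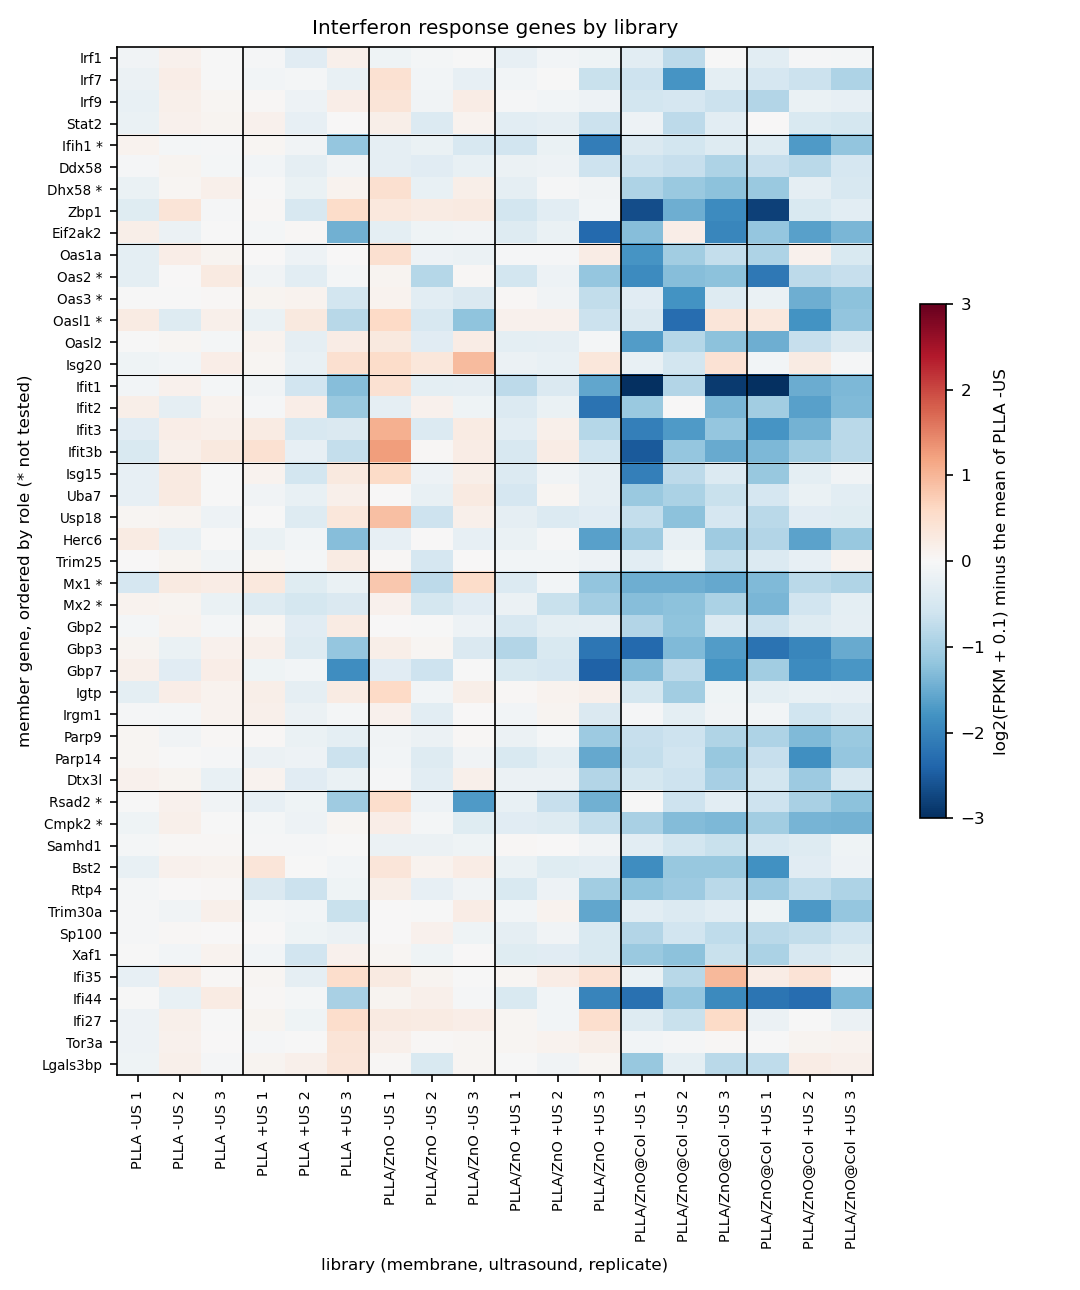
Level of each of the 47 members (vertical axis, ordered by role, * for the 9 not tested) in each of the 18 libraries (horizontal axis), as log2(FPKM + 0.1) minus the mean of the 3 PLLA -US libraries. Blue fills most of the 6 collagen columns, and among the uncoated ones PLLA/ZnO +US replicate 3 is the bluest.

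Medians by library were low on collagen, with 1 uncoated library close to them. The median over the 38 tested members of log2(FPKM + 0.1), relative to the mean of PLLA -US, was -0.89, -0.78 and -0.75 in PLLA/ZnO@Col -US replicates 1 to 3 and -0.80, -0.54 and -0.45 in PLLA/ZnO@Col +US replicates 1 to 3. Uncoated libraries lay between -0.44 and 0.14, and the median over all tested genes lay between -0.08 and 0.14 in all 18. In each collagen library 28 to 34 members were below the lowest PLLA -US library, beside 33.6% to 46.4% of all tested genes. The lowest uncoated library was PLLA/ZnO +US replicate 3, with 29 members below that range, beside 43.9% of all tested genes. Over all 47 members its median was -0.62, below the -0.50 of PLLA/ZnO@Col +US replicate 3, so on the full list the groups overlapped in this measure. The heatmap of the 47 genes by library shows its blue column.

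Leaving out the libraries that stood apart did not change the direction of the median, but each fit rested on a single library in 1 collagen group. Without the 3 that lacked Y-linked reads all 38 tested members were lower (median -0.61). Replicate 2 alone then stood for PLLA/ZnO@Col -US and weighed as much as PLLA/ZnO@Col +US replicates 2 and 3 together. Without the 4 at intermediate Y-linked reads 37 of 38 were lower. There PLLA/ZnO@Col +US was left with replicate 1, which lacked Y-linked reads. The single libraries were assumed to vary like the others. Neither fit called all of the 18 members that fell with all libraries, and calls in such fits rest on that assumption. Among the 11 libraries with full Y-linked reads, the single collagen library, PLLA/ZnO@Col -US replicate 2, was below the mean of the 10 uncoated ones in 36 of 38 members (median difference -0.69 in log2(FPKM + 0.1)) and below all 10 in 31 of 38, where 22.9% of all tested genes were. That collagen library also had the lowest Thy1 of the 11 (2.55 FPKM, beside 3.45 to 4.89) and the highest share of mitochondrial reads (4.54%, beside at most 4.23%). Its myeloid marker sum was 21.9 and Itgam and Tyrobp were at 0 counts, where 9 of the 10 uncoated libraries had sums of 40.4 to 46 and PLLA/ZnO -US replicate 3 had 18.5; the part of these differences was not tested. Among the 4 intermediate libraries, the 2 on collagen were lower than the 2 uncoated ones in 33 of 38 members, with a median difference of -0.25, and below both in 12 of 38, where 21.6% of all tested genes were. Among the 6 libraries almost without Itgam, the 3 on collagen were lower than the 3 uncoated ones in 35 of 38 members (median difference -0.44) and below all 3 in 9, where 4.78% of all tested genes were. Among the 12 with Itgam, whose 3 collagen libraries are those lacking Y-linked reads, 36 of 38 were lower (median -0.72) and 26 were below all 9 uncoated libraries, where 18.3% of all tested genes were. No test was made within these sets, which were formed after the data were seen.

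Single libraries changed the count of members that fell. Leaving out PLLA/ZnO@Col +US replicate 1 left 5 members that fell (Zbp1, Oasl2, Parp9, Sp100 and Bst2), beside 0.251% of all tested genes called in either direction. Leaving out PLLA/ZnO@Col -US replicate 1 left 11, beside 1.47%. Leaving out PLLA/ZnO@Col -US replicate 2 gave 26, but 24.8% of all tested genes were then called. Against the 2 PLLA/ZnO groups alone, which carry zinc oxide as the collagen groups do, 37 of 38 members were lower and 12 fell, beside 2.75% of genes called. Sp100 was called in each of these fits and in all 18 that left out 1 library.

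**Figure D2:**
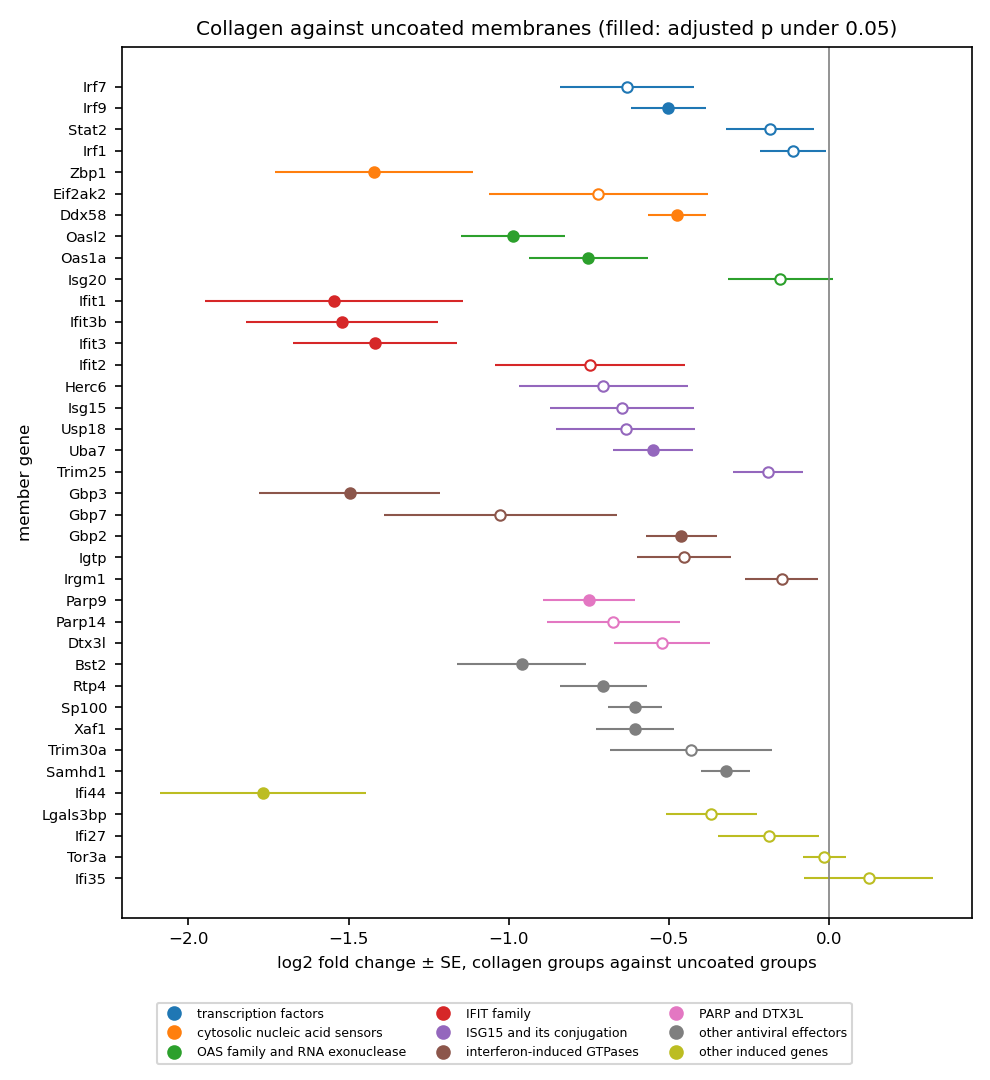
Log2 fold change with its SE (horizontal axis) of the 38 tested members (vertical axis, coloured by role), mean of the collagen groups minus mean of the uncoated groups. Filled points passed an adjusted p of 0.05; they run from Ifi44 at -1.77 to Samhd1 at -0.32, and Ifi35 at 0.12 is the single member above 0.

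Of the transcription factors of the response, Irf9, the DNA-binding subunit of ISGF3, was the 1 of 4 that fell. It ranged from 1.69 to 2.61 FPKM (median 1.99) in the 12 uncoated libraries and from 1.04 to 1.71 FPKM (median 1.35) in the 6 collagen libraries (log2 fold change -0.50, SE 0.12, adjusted p = 0.026). The ranges met only where PLLA/ZnO@Col +US replicate 2 passed the lowest uncoated library, PLLA -US replicate 1. Irf7, which amplifies interferon production, spanned 1.38 to 3.11 FPKM (median 2.11) and 0.591 to 1.82 FPKM (median 1.42) (-0.63, SE 0.21, adjusted p = 0.0831), with its lowest value in PLLA/ZnO@Col -US replicate 2. With the 3 libraries lacking Y-linked reads left out, the log2 fold change of Irf7 was -1.28, and that replicate alone stood for PLLA/ZnO@Col -US. The most abundant factor was Irf1, induced by interferons of both types. Its levels were 24.7, 29.1 and 26.4 FPKM in PLLA -US, 26, 21.1 and 29.6 in PLLA +US, 24.5, 25.5 and 26.4 in PLLA/ZnO -US and 22.6, 25.3 and 24.2 in PLLA/ZnO +US. On collagen they were 21.5, 15.6 and 26.4 FPKM in PLLA/ZnO@Col -US and 21.5, 26 and 25.5 in PLLA/ZnO@Col +US, so the groups overlapped and only replicate 2 of PLLA/ZnO@Col -US was below every uncoated library (-0.11, SE 0.10, adjusted p = 0.504). Stat2, a subunit of ISGF3, was at 6.05, 7.64 and 7.4 FPKM in PLLA -US, 7.63, 5.83 and 7.01 in PLLA +US, 7.97, 5.2 and 7.5 in PLLA/ZnO -US and 5.55, 5.8 and 4.47 in PLLA/ZnO +US. With collagen it was at 6.26, 4.03 and 5.64 FPKM in PLLA/ZnO@Col -US and 7.09, 5.05 and 4.85 in PLLA/ZnO@Col +US, again with overlap (-0.18, SE 0.14, adjusted p = 0.407).

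Among the sensors, Ddx58 and Zbp1 fell and Eif2ak2 varied by library. Ddx58 encodes RIG-I, which detects viral RNA in the cytosol. It was at 12.8, 13.9 and 12.6 FPKM in PLLA -US, 12.3, 10.8 and 12.2 in PLLA +US, 10.8, 10.4 and 11.2 in PLLA/ZnO -US and 11.6, 11.8 and 8.47 in PLLA/ZnO +US. In the collagen groups it was at 8.5, 8.07 and 6.82 FPKM in PLLA/ZnO@Col -US and 8.07, 7.41 and 9.21 in PLLA/ZnO@Col +US, with PLLA/ZnO +US replicate 3 the one uncoated library inside the collagen range (-0.48, SE 0.09, adjusted p = 0.013). Zbp1, a sensor of Z-form nucleic acid, showed a split within collagen. It ranged from 3.05 to 6.64 FPKM (median 4.48) without collagen, and was at 0.62, 1.56 and 1.13 FPKM in PLLA/ZnO@Col -US and 0.558, 3.25 and 3.58 in PLLA/ZnO@Col +US (-1.42, SE 0.31, adjusted p = 0.0186). PLLA/ZnO@Col +US replicates 2 and 3 were within the uncoated range and the other 4 collagen libraries below it. Eif2ak2 encodes PKR, the RNA-dependent kinase that halts translation. Its uncoated levels were 14.1, 11 and 12.4 FPKM in PLLA -US, 11.9, 12.8 and 4.53 in PLLA +US, 10.1, 11.4 and 11.6 in PLLA/ZnO -US and 9.53, 10.8 and 2.39 in PLLA/ZnO +US. Its collagen levels were 5.04, 14.4 and 3.12 FPKM in PLLA/ZnO@Col -US and 5.5, 3.96 and 4.74 in PLLA/ZnO@Col +US (-0.72, SE 0.34, adjusted p = 0.205). The highest of all 18 libraries was PLLA/ZnO@Col -US replicate 2, and the lowest was the uncoated PLLA/ZnO +US replicate 3, and the groups overlapped throughout.

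The OAS family makes the oligoadenylate messenger that activates RNase L. Oasl2, a member of the family, fell. It was at 3.37, 3.54 and 3.26 FPKM in PLLA -US, 3.66, 2.78 and 3.99 in PLLA +US, 4.19, 2.65 and 3.95 in PLLA/ZnO -US and 2.76, 2.8 and 3.23 in PLLA/ZnO +US. On collagen it was at 0.996, 1.83 and 1.39 FPKM in PLLA/ZnO@Col -US and 1.16, 2.05 and 2.47 in PLLA/ZnO@Col +US, and every collagen library was below every uncoated one (-0.99, SE 0.16, adjusted p = 0.0108). Non-overlap of this kind held downward for 3 tested members, Oasl2, Ifit3b and Sp100, and upward for 0, beside 0.151% and 0.0922% of all tested genes. Oas1a, a synthetase of the family, was at 2.82, 3.99 and 3.7 FPKM in PLLA -US, 3.47, 3.12 and 3.48 in PLLA +US, 4.88, 3.09 and 3.06 in PLLA/ZnO -US and 3.39, 3.36 and 4.04 in PLLA/ZnO +US. It was at 0.945, 1.62 and 2.06 FPKM in PLLA/ZnO@Col -US and 1.78, 3.77 and 2.49 in PLLA/ZnO@Col +US with collagen, and only PLLA/ZnO@Col +US replicate 2 reached the uncoated range (-0.75, SE 0.18, adjusted p = 0.0309). Isg20, an exonuclease that degrades RNA, was listed in the same group and did not pass. Its levels of 3.02, 3.16 and 3.84 FPKM in PLLA -US, 3.46, 2.82 and 4.65 in PLLA +US, 4.91, 4.22 and 6.54 in PLLA/ZnO -US and 2.94, 2.82 and 4.26 in PLLA/ZnO +US overlapped with 2.84, 2.25 and 4.5 FPKM in PLLA/ZnO@Col -US and 3.13, 3.96 and 3.22 in PLLA/ZnO@Col +US (-0.15, SE 0.16, adjusted p = 0.565).

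IFIT proteins bind viral RNA that lacks host cap methylation, and this family had the lowest median of any role, -1.47 over 4 genes, of which 3 fell. Ifit3 (chromosome 19, 34583531 to 34588731) was at 5.55, 8.13 and 7.85 FPKM in PLLA -US, 8.35, 5.06 and 5.24 in PLLA +US, 15, 5.3 and 8.36 in PLLA/ZnO -US and 5.71, 7.87 and 3.88 in PLLA/ZnO +US. Its collagen levels were 1.62, 2.1 and 3.13 FPKM in PLLA/ZnO@Col -US and 2.02, 2.59 and 3.98 in PLLA/ZnO@Col +US, and only PLLA/ZnO@Col +US replicate 3 reached the uncoated range, at the level of PLLA/ZnO +US replicate 3 (-1.42, SE 0.26, adjusted p = 0.0117). Ifit1 (chromosome 19, 34640871 to 34650009) was at 7.16, 8.2 and 7.28 FPKM in PLLA -US, 7, 5 and 3.03 in PLLA +US, 10.3, 6.15 and 6.26 in PLLA/ZnO -US and 4.33, 5.58 and 2.49 in PLLA/ZnO +US. With collagen it was at 0.864, 4.05 and 0.943 FPKM in PLLA/ZnO@Col -US and 0.46, 2.61 and 2.89 in PLLA/ZnO@Col +US, and the groups overlapped (-1.54, SE 0.40, adjusted p = 0.0383). The 3 libraries lacking Y-linked reads held its 3 lowest values, and their part in the result was not tested. Within the 4 intermediate libraries the difference for Ifit1 was 0 in log2(FPKM + 0.1), and it was -0.68 within the 11 with full Y-linked reads. Ifit3b was at 1.16, 1.81 and 2.01 FPKM in PLLA -US, 2.24, 1.35 and 0.951 in PLLA +US, 4, 1.66 and 1.91 in PLLA/ZnO -US and 1.13, 1.92 and 1.04 in PLLA/ZnO +US. It was at 0.2, 0.675 and 0.503 FPKM in PLLA/ZnO@Col -US and 0.57, 0.738 and 0.886 in PLLA/ZnO@Col +US on collagen, with no overlap (-1.52, SE 0.30, adjusted p = 0.0137). The split of reads between Ifit3 and Ifit3b is uncertain, since 44.5% of the 50-base windows of the longest Ifit3b transcript also occur in that of Ifit3. The median of the family lies between the values of these genes. Its rank among the roles and its count of genes that fell therefore depend on that split. Ifit3b also passed the filter through the uncoated groups. Ifit2 did not pass (-0.75, SE 0.30, adjusted p = 0.138), ranging from 1.24 to 7.05 FPKM (median 5.48) without collagen and from 1.91 to 6.12 FPKM (median 2.57) with it.

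**Figure D3:**
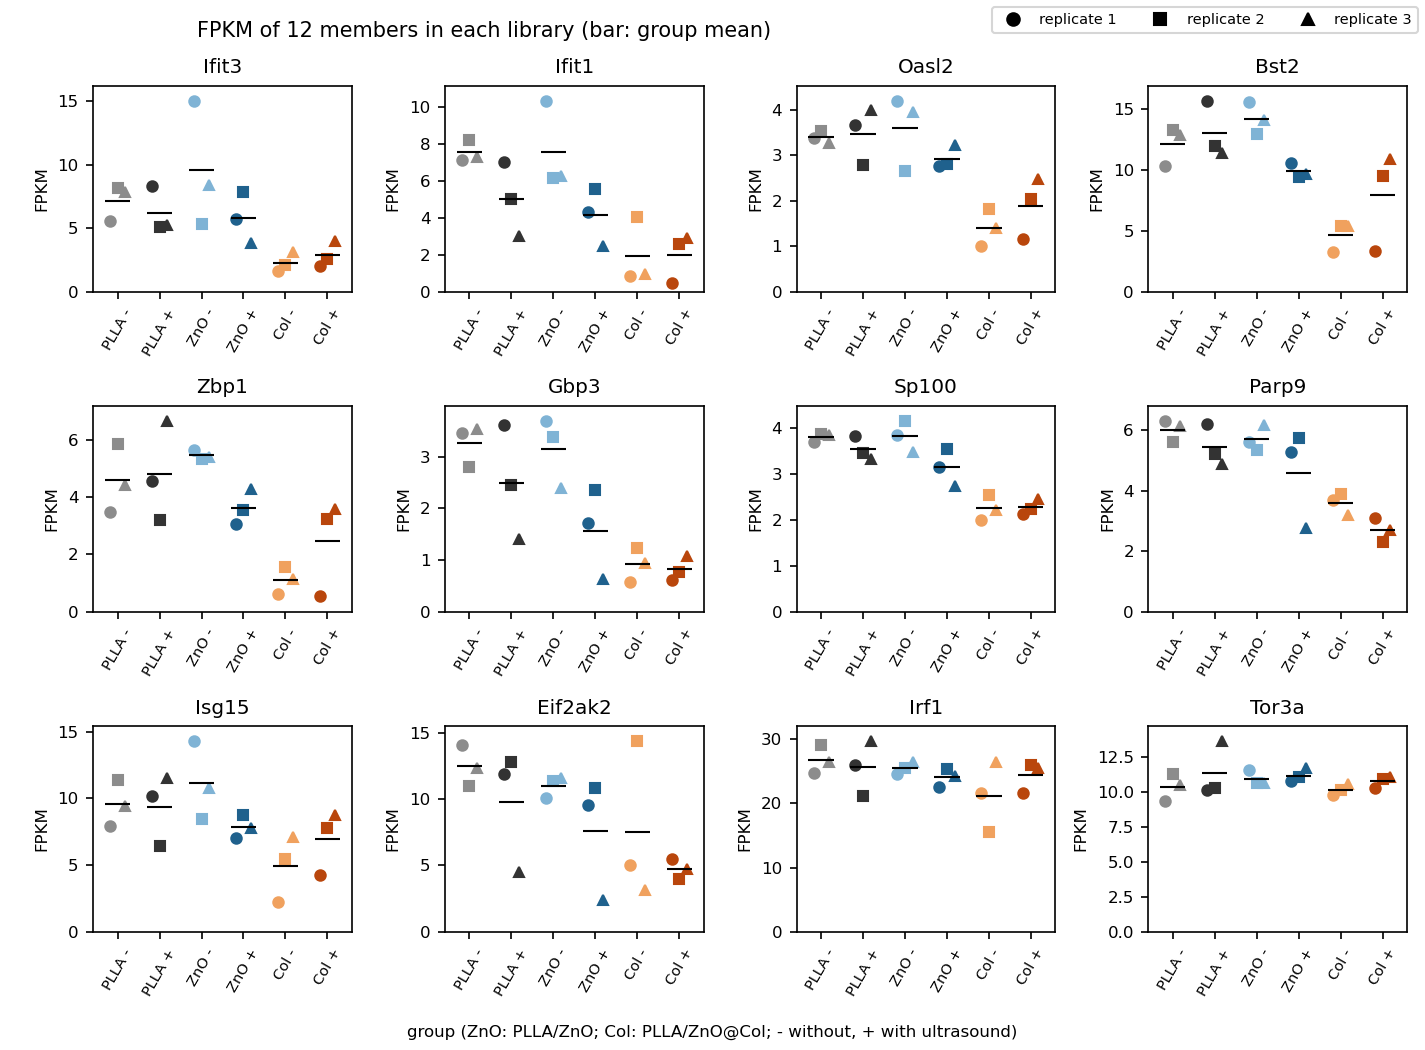
FPKM (vertical axes, from 0) of 12 members in each library by group (horizontal axes; marker shape is the replicate, bars are group means of 3). Sp100 and Oasl2 separate all collagen from all uncoated libraries, while the groups overlap in Irf1 and Tor3a and Eif2ak2 scatters within groups.

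ISG15 is a ubiquitin-like protein that UBA7 activates, TRIM25 and HERC6 attach to targets and USP18 removes. Of these 5 genes only Uba7 fell. It was at 1.5, 2.18 and 1.77 FPKM in PLLA -US, 1.66, 1.52 and 2 in PLLA +US, 1.81, 1.52 and 2.18 in PLLA/ZnO -US and 1.24, 1.88 and 1.46 in PLLA/ZnO +US. On collagen it was at 0.782, 0.883 and 1.1 FPKM in PLLA/ZnO@Col -US and 1.23, 1.54 and 1.43 in PLLA/ZnO@Col +US (-0.55, SE 0.12, adjusted p = 0.0231), and all 3 PLLA/ZnO@Col -US libraries were below the 12 uncoated ones. Isg15 (chromosome 4, 156199455 to 156200796) was at 7.96, 11.4 and 9.4 FPKM in PLLA -US, 10.2, 6.44 and 11.6 in PLLA +US, 14.3, 8.46 and 10.8 in PLLA/ZnO -US and 7.07, 8.78 and 7.81 in PLLA/ZnO +US. Its collagen levels of 2.21, 5.44 and 7.13 FPKM in PLLA/ZnO@Col -US and 4.29, 7.76 and 8.74 in PLLA/ZnO@Col +US overlapped with these (-0.65, SE 0.22, adjusted p = 0.0957), and the lowest library was replicate 1 of PLLA/ZnO@Col -US. Trim25 was at 8.95, 9.49 and 8.29 FPKM in PLLA -US, 9.27, 8.53 and 10.6 in PLLA +US, 9.05, 6.28 and 8.95 in PLLA/ZnO -US and 8.45, 8.37 and 8.01 in PLLA/ZnO +US. It was at 7.09, 8.09 and 5.25 FPKM in PLLA/ZnO@Col -US and 6.71, 7.48 and 9.63 in PLLA/ZnO@Col +US with collagen, inside the uncoated range apart from PLLA/ZnO@Col -US replicate 3 (-0.19, SE 0.11, adjusted p = 0.29). Usp18 (-0.63, SE 0.22, adjusted p = 0.0917) and Herc6 (-0.70, SE 0.26, adjusted p = 0.119) did not pass.

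The guanylate-binding proteins and immunity-related GTPases act on vacuoles of intracellular microbes, and 2 of 5 tested members fell. Gbp3 was at 3.45, 2.79 and 3.54 FPKM in PLLA -US, 3.62, 2.44 and 1.4 in PLLA +US, 3.68, 3.38 and 2.39 in PLLA/ZnO -US and 1.71, 2.35 and 0.643 in PLLA/ZnO +US. With collagen it was at 0.568, 1.24 and 0.946 FPKM in PLLA/ZnO@Col -US and 0.62, 0.764 and 1.07 in PLLA/ZnO@Col +US (-1.50, SE 0.28, adjusted p = 0.0126). Of the uncoated libraries only PLLA/ZnO +US replicate 3 was inside the collagen range. Gbp2 had the highest mean level of all members, 34.2 FPKM. It was at 39, 43.2 and 39 FPKM in PLLA -US, 41.8, 32 and 47.5 in PLLA +US, 40.5, 40.2 and 36.5 in PLLA/ZnO -US and 28.9, 33 and 33.4 in PLLA/ZnO +US. The collagen libraries were at 21.9, 17.5 and 30.3 FPKM in PLLA/ZnO@Col -US and 25.7, 31 and 33.5 in PLLA/ZnO@Col +US, with PLLA/ZnO@Col -US replicate 2 lowest and 3 libraries, -US replicate 3 and +US replicates 2 and 3, in the uncoated range (-0.46, SE 0.11, adjusted p = 0.0285). Irgm1, a regulator of the other immunity-related GTPases, did not pass: it was at 8.62, 8.5 and 9.58 FPKM in PLLA -US, 9.87, 7.84 and 8.47 in PLLA +US, 9.73, 7.14 and 8.92 in PLLA/ZnO -US and 8.44, 9.38 and 6.59 in PLLA/ZnO +US. Its collagen values were 8.72, 7.18 and 8.24 FPKM in PLLA/ZnO@Col -US and 8.33, 5.83 and 6.68 in PLLA/ZnO@Col +US (-0.15, SE 0.11, adjusted p = 0.42). Igtp (-0.45, SE 0.15, adjusted p = 0.0767) and Gbp7 (-1.03, SE 0.36, adjusted p = 0.102) were not called either, and Igtp overlaps Irgm2 on the same strand.

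Parp9, Parp14 and Dtx3l act in ADP-ribosylation, with PARP9 and DTX3L forming a ubiquitin ligase complex, and 1 of the 3 fell. Parp9 was at 6.29, 5.61 and 6.13 FPKM in PLLA -US, 6.2, 5.21 and 4.88 in PLLA +US, 5.62, 5.34 and 6.17 in PLLA/ZnO -US and 5.27, 5.74 and 2.76 in PLLA/ZnO +US. On collagen it was at 3.68, 3.87 and 3.19 FPKM in PLLA/ZnO@Col -US and 3.09, 2.32 and 2.71 in PLLA/ZnO@Col +US, and PLLA/ZnO +US replicate 3 alone among uncoated libraries lay in that range (-0.75, SE 0.14, adjusted p = 0.013). Dtx3l was at 4.49, 4.37 and 3.52 FPKM in PLLA -US, 4.42, 3.25 and 3.58 in PLLA +US, 3.99, 3.26 and 4.59 in PLLA/ZnO -US and 3.64, 3.63 and 2.19 in PLLA/ZnO +US. It was at 2.8, 2.65 and 2.01 FPKM in PLLA/ZnO@Col -US and 2.79, 1.87 and 2.93 in PLLA/ZnO@Col +US with collagen, with the same overlap (-0.52, SE 0.15, adjusted p = 0.0536). These 2 genes overlap on opposite strands, and whether the counts used strand is not given in the sources used here, so their reads may be shared. Parp14 did not pass (-0.67, SE 0.21, adjusted p = 0.067). Of the 47 members 17 overlap another gene of the table, among them Irf9 with Rnf31, Irf7 with Phrf1 and Rtp4 with Masp1, and their counts carry the same limit.

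Of the other effectors with known antiviral action, 5 of the 6 tested fell. Sp100 (chromosome 1, 85649988 to 85709998), a component of PML nuclear bodies that silences viral genomes, had the smallest adjusted p of any member. It was at 3.69, 3.87 and 3.85 FPKM in PLLA -US, 3.82, 3.46 and 3.33 in PLLA +US, 3.85, 4.15 and 3.47 in PLLA/ZnO -US and 3.15, 3.54 and 2.75 in PLLA/ZnO +US. On collagen it was at 2.01, 2.54 and 2.21 FPKM in PLLA/ZnO@Col -US and 2.13, 2.25 and 2.46 in PLLA/ZnO@Col +US, with every collagen library below every uncoated one (-0.61, SE 0.08, adjusted p = 0.00667). Bst2 encodes tetherin, which holds budding virus at the cell surface. It was at 10.3, 13.3 and 12.9 FPKM in PLLA -US, 15.6, 12 and 11.4 in PLLA +US, 15.6, 12.9 and 14.1 in PLLA/ZnO -US and 10.6, 9.38 and 9.7 in PLLA/ZnO +US. It was at 3.24, 5.42 and 5.43 FPKM in PLLA/ZnO@Col -US and 3.36, 9.51 and 10.9 in PLLA/ZnO@Col +US with collagen (-0.96, SE 0.20, adjusted p = 0.0166), where PLLA/ZnO@Col +US replicates 2 and 3 reached the uncoated range and the other 4 libraries did not.

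Samhd1 hydrolyses the nucleotides that viruses need for DNA synthesis. It was at 9.52, 10.1 and 10.1 FPKM in PLLA -US, 9.59, 9.71 and 9.83 in PLLA +US, 8.79, 8.72 and 9.05 in PLLA/ZnO -US and 10.2, 9.98 and 9.26 in PLLA/ZnO +US. In the collagen groups it was at 7.88, 6.67 and 6.23 FPKM in PLLA/ZnO@Col -US and 7.06, 7.55 and 9.01 in PLLA/ZnO@Col +US, a small change with one library, PLLA/ZnO@Col +US replicate 3, inside the uncoated range (-0.32, SE 0.08, adjusted p = 0.0272). Xaf1, a factor that promotes apoptosis, was at 5.96, 5.76 and 6.48 FPKM in PLLA -US, 5.72, 4.03 and 6.6 in PLLA +US, 6.29, 5.53 and 6.12 in PLLA/ZnO -US and 4.68, 4.77 and 4.36 in PLLA/ZnO +US. Its collagen levels were 2.74, 2.51 and 3.8 FPKM in PLLA/ZnO@Col -US and 3.09, 4.3 and 4.69 in PLLA/ZnO@Col +US (-0.61, SE 0.12, adjusted p = 0.0141), with PLLA/ZnO@Col +US replicates 2 and 3 overlapping. Rtp4, an interferon-induced receptor transporter protein, was at 4.79, 4.99 and 5.11 FPKM in PLLA -US, 3.62, 3.14 and 4.53 in PLLA +US, 5.61, 4.17 and 4.57 in PLLA/ZnO -US and 3.56, 4.44 and 2.36 in PLLA/ZnO +US. It was at 2.1, 2.28 and 2.78 FPKM in PLLA/ZnO@Col -US and 2.27, 2.91 and 2.57 in PLLA/ZnO@Col +US on collagen (-0.70, SE 0.14, adjusted p = 0.0131), and PLLA/ZnO +US replicate 3 was the uncoated library in that range. Trim30a, a ubiquitin ligase, did not pass (-0.43, SE 0.25, adjusted p = 0.294).

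The last role, other induced genes, had the median nearest to 0, -0.19 over 5 genes. Ifi44, an induced gene of little-known function, had the largest fold change of the 38 tested members. It passed the filter through the uncoated groups, where it was higher. It was at 1.59, 1.35 and 1.93 FPKM in PLLA -US, 1.64, 1.55 and 0.773 in PLLA +US, 1.71, 1.8 and 1.56 in PLLA/ZnO -US and 1.15, 1.5 and 0.334 in PLLA/ZnO +US. With collagen it was at 0.262, 0.66 and 0.351 FPKM in PLLA/ZnO@Col -US and 0.274, 0.249 and 0.567 in PLLA/ZnO@Col +US (-1.77, SE 0.32, adjusted p = 0.0117), and PLLA/ZnO +US replicate 3 lay among the collagen libraries. Lgals3bp, a secreted galectin-binding glycoprotein, was at 20, 24.3 and 21.5 FPKM in PLLA -US, 23, 24.3 and 28 in PLLA +US, 22.5, 15.8 and 22.7 in PLLA/ZnO -US and 21.5, 20.1 and 22.9 in PLLA/ZnO +US. On collagen it was at 9.86, 17.7 and 12.5 FPKM in PLLA/ZnO@Col -US and 12.9, 25.4 and 24.1 in PLLA/ZnO@Col +US (-0.37, SE 0.14, adjusted p = 0.13). The 3 libraries lacking Y-linked reads gave its 3 lowest values; their part in the result was not tested. Ifi27, a small membrane protein gene, was at 15.6, 19.2 and 17.2 FPKM in PLLA -US, 18.4, 15.8 and 25.1 in PLLA +US, 20.8, 20.6 and 20 in PLLA/ZnO -US and 18.1, 16.4 and 24.6 in PLLA/ZnO +US. Its collagen values of 13.2, 10.8 and 25.9 FPKM in PLLA/ZnO@Col -US and 15.4, 17.2 and 15.2 in PLLA/ZnO@Col +US overlapped with these (-0.19, SE 0.16, adjusted p = 0.463). Tor3a, a torsin ATPase, did not pass, and its groups overlapped (-0.01, SE 0.07, adjusted p = 0.898). Ifi35 did not pass either (0.12, SE 0.20, adjusted p = 0.704). It ranged from 7.35 to 12.8 FPKM (median 9.34) without collagen and from 4.93 to 17.3 FPKM (median 9.64) with it, with the lowest of all 18 values in PLLA/ZnO@Col -US replicate 2 and the highest in replicate 3 of the same group.

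The 9 members below the filter were Ifih1, Dhx58, Oas2, Oas3, Oasl1, Mx1, Mx2, Rsad2 and Cmpk2, of which none exceeded 1.2 FPKM in any library. In the fit with no filter, Cmpk2, a mitochondrial nucleotide kinase (-1.39, adjusted p = 0.00773), Mx1, a dynamin-like restriction factor (-1.59, adjusted p = 0.0399), and Dhx58, the LGP2 sensor (-0.96, adjusted p = 0.0417), fell. Cmpk2 was at 0.355 to 0.747 FPKM (median 0.594) without collagen and at 0.18 to 0.276 FPKM (median 0.197) with it, with no overlap. With it, 4 of all 47 members did not overlap, beside 0.0657% of the 30452 genes.

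The comparison of collagen was then made at each ultrasound condition, PLLA/ZnO@Col against PLLA/ZnO. Without ultrasound 37 of 38 members were lower (median -0.72), beside 45% of all tested genes lower and 55% higher (median 0.04). No member passed, with 0 of 11936 genes called (0%) and a smallest adjusted p of 0.0673, that of Sp100. At an unadjusted p under 0.05, 25 members were lower and 0 higher, beside 5.17% and 7.77% of all tested genes. All 3 collagen libraries were below all 3 PLLA/ZnO libraries in 26 members and above them in 0, beside 6.31% and 5.09%. The 38 include members, Ifit3b among them, that passed the filter through the uncoated groups. With no filter, 30 of 47 were lower and 0 higher at edgeR's unadjusted p under 0.05, beside 3.38% and 3.02% of genes. Non-overlap then held downward in 31 of 47 and upward in 0, beside 4.83% and 3.05%. The smallest p-values were those of Sp100 (-0.73, SE 0.13, adjusted p = 0.0673), Oasl2 (-1.33, SE 0.26, adjusted p = 0.0684) and Ifit3b (-2.42, SE 0.48, adjusted p = 0.0684), by edgeR's quasi-likelihood test. In all 3 genes the groups did not overlap.

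The calls in this comparison changed with the libraries and the tool, and the direction of the median did not. DESeq2 called 15 members lower, beside 3.41% of genes called in either direction. Without the 3 libraries lacking Y-linked reads, which leaves PLLA/ZnO@Col -US replicate 2 as its only library, assumed to vary like the others, edgeR called 7 members lower (Gbp2, Bst2, Xaf1, Irf7, Zbp1, Irf1 and Igtp), beside 1.39% of genes, with 36 of 38 lower and a median of -0.94. Without all 7 libraries low in Y-linked reads it called 21, beside 16.2%, with a median of -0.93. Leaving out PLLA/ZnO@Col -US replicate 2 instead gave 14 calls, beside 8.7% of genes.

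With ultrasound the median was nearer to 0. Of the 38 members 34 were lower (median -0.33), beside 49.6% of all tested genes lower and 50.4% higher (median 0.003), and 0 of 11936 genes passed (0%, smallest adjusted p of a member 0.415). At an unadjusted p under 0.05, 7 members were lower and 0 higher, beside 2.51% and 6.92%. The groups did not overlap downward in 6 members and upward in 0, beside 5.08% and 10.2%. With no filter, 9 of 47 were lower and 0 higher at edgeR's unadjusted p under 0.05, beside 2.32% and 1.8% of genes. Non-overlap then held downward in 7 of 47 and upward in 0, beside 3.24% and 5.01%. The leading members were Sp100 (-0.43, SE 0.13, adjusted p = 0.415), Parp9 (-0.73, SE 0.23, adjusted p = 0.415) and Ifi44 (-1.42, SE 0.49, adjusted p = 0.43), by edgeR's quasi-likelihood test. In Parp9 and Ifi44 PLLA/ZnO +US replicate 3 overlapped the collagen libraries. In both conditions 34 of the 38 were lower, and with no filter 45 of 47; 31 of 38 had the lower log2 change without ultrasound. DESeq2 called 0 members here.

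**Figure D4:**
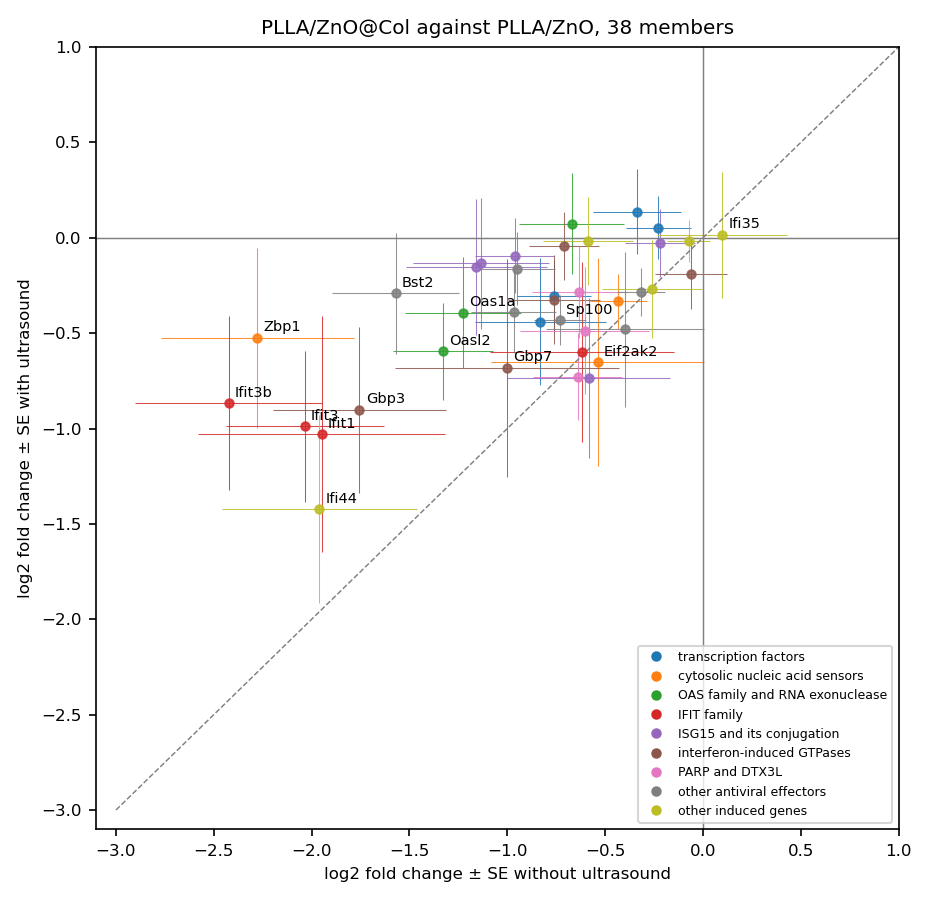
Log2 fold change with SE of 38 members for PLLA/ZnO@Col against PLLA/ZnO, without ultrasound (horizontal axis) and with it (vertical axis), coloured by role; the dashed line marks equal change. Of the 38 points 34 are below 0 on both axes and 31 lie above the dashed line, with Zbp1 at -2.28 and -0.52 and Bst2 at -1.57 and -0.29.

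Zinc oxide alone gave no called member. Without ultrasound 18 of 38 members were lower on PLLA/ZnO than on PLLA and the median was 0.02, beside 51.1% of all tested genes lower and 48.9% higher. The groups did not overlap downward in 3 members and upward in 2, beside 9.95% and 7.61%. No gene of 11936 passed (0%), and at an unadjusted p under 0.05 there were 0 members lower and 1 higher, beside 0.293% and 0.896%. That member was Isg20, at 4.91, 4.22 and 6.54 FPKM on PLLA/ZnO and 3.02, 3.16 and 3.84 on PLLA, without overlap (0.66, SE 0.27, adjusted p = 1 by edgeR's test). With ultrasound 32 of 38 were lower (median -0.13), beside 53.8% of genes, and 0 members reached even the unadjusted level, beside 0.586% lower and 0.679% higher. The groups did not overlap downward in 4 members and upward in 0, beside 5.91% and 2.03%. These contrasts share the PLLA/ZnO libraries with the collagen contrasts.

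Ultrasound gave no called member on any membrane, with 0 of 11936 genes called on each (0%). On PLLA 29 of 38 members were lower with it (median -0.11), beside 49.5% of all tested genes lower and 50.5% higher, and 0 reached an unadjusted p under 0.05, beside 0.235% lower and 0.201% higher. On PLLA/ZnO 33 of 38 were lower (median -0.33), beside 53.7%. The groups did not overlap downward in 7 members and upward in 1, beside 4.62% and 6.82%. There 3 members were lower at the unadjusted level and 0 higher, beside 1.14% and 2.1%: Isg20 (-0.64, SE 0.27), Gbp3 (-1, SE 0.43) and Rtp4 (-0.47, SE 0.22). PLLA/ZnO +US replicate 3, an intermediate library, was lowest of its group in Gbp3 and Rtp4, and highest in Isg20. Without the 7 libraries low in Y-linked reads the median was -0.22 with 31 of 38 lower.

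On collagen the direction was the other one. With ultrasound 27 of 38 members were higher (median 0.10), beside 47.1% of all tested genes, and 6 were higher and 0 lower at an unadjusted p under 0.05, beside 5.15% and 3.02%. The groups did not overlap upward in 1 member, Uba7, and downward in 1, Parp9, beside 5.28% and 5.74% of all tested genes. Uba7 was at 1.23, 1.54 and 1.43 FPKM with ultrasound and 0.782, 0.883 and 1.1 without it (0.60, SE 0.20, adjusted p = 0.525 by edgeR's test). Lgals3bp (0.65, SE 0.23), Oas1a (0.80, SE 0.29), Zbp1 (1.16, SE 0.48), Bst2 (0.76, SE 0.32) and Xaf1 (0.41, SE 0.19) were the other 5, each with groups that overlapped. In each of these 5 the +US library lacking Y-linked reads, replicate 1, was within or below the -US range. Replicates 2 and 3, at intermediate Y-linked reads, were above it. The part of this difference between libraries in the result was not tested. Leaving out the 3 libraries lacking Y-linked reads left 1 collagen library without ultrasound, replicate 2, assumed to vary like the other groups. In that fit 1 member rose, Gbp2 (adjusted p = 0.0497), beside 0.93% of genes, and the median was 0.34. Gbp2 was at its lowest of all 18 libraries, 17.5 FPKM, in that replicate.

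The difference between the ultrasound effects on collagen and on PLLA/ZnO, which is the same as that between the collagen effects with and without ultrasound, was tested as an interaction. It was above 0 in 31 of 38 members (median 0.45), beside 42.8% of all tested genes, and no member passed (0% of 11936 genes, smallest adjusted p 0.999). At an unadjusted p under 0.05 it was above 0 in 6 members and below 0 in 0, beside 1.71% and 0.494%, led by Uba7 (0.87, SE 0.28), Xaf1 (0.79, SE 0.27) and Bst2 (1.28, SE 0.45). The difference between the conditions was therefore not shown to exceed the spread between libraries.

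Upstream of the members, interferon transcripts themselves were close to absent. Of 21 type I, II and III interferon genes listed, 5 were in the table, and the highest value of any was 0.242 FPKM, for Ifnz. Ifnb1, the beta interferon gene, was listed at 0 in 15 of 18 libraries and reached at most 0.0708 FPKM. No change of the ligands could be measured at these levels.

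The listed receptor and JAK-STAT genes did not pass on collagen. That list mixes receptors of type I, II and III interferons and kinases with inhibitors of the signal such as Socs1 and Socs3. Its counts and medians therefore do not measure signalling. Of 15 tested, 11 were lower against the uncoated groups (median log2 fold change -0.19), where 47.9% of all tested genes were, and 0 were called, where 1.54% of all tested genes fell and 4.42% rose. At an unadjusted p under 0.05, 6 were lower and 1 higher, beside 7.99% and 16.9%. The smallest adjusted p was that of Jak2, a receptor-associated kinase (-0.90, SE 0.28, adjusted p = 0.0727 by edgeR's test). It was at 18.8, 13.5 and 15.9 FPKM in PLLA -US, 13, 13.7 and 7.75 in PLLA +US, 11.2, 17.6 and 12.3 in PLLA/ZnO -US and 9.48, 11.6 and 2.94 in PLLA/ZnO +US. On collagen it was at 5.11, 13.7 and 4.76 FPKM in PLLA/ZnO@Col -US and 5.47, 3.97 and 5.39 in PLLA/ZnO@Col +US. The lowest library was an uncoated one, PLLA/ZnO +US replicate 3. Of the collagen libraries only replicate 2 without ultrasound was in the range of the other 11 uncoated ones. Ifnar2, a receptor subunit, ranged from 10.3 to 15.9 FPKM in uncoated libraries and was at 6.01, 10.8 and 8.19 FPKM in PLLA/ZnO@Col -US and 6.22, 10.7 and 11.9 in PLLA/ZnO@Col +US (-0.41, SE 0.14, adjusted p = 0.0855). Its 3 low values, like those of Ifnar1 at 8.65, 13.5 and 6.36 FPKM in PLLA/ZnO@Col -US and 8.15, 12.8 and 13.7 in PLLA/ZnO@Col +US (-0.16, SE 0.13, adjusted p = 0.45), were those of the libraries lacking Y-linked reads. The other collagen libraries were within the uncoated range of both genes. Jak1 (0.02, SE 0.11, adjusted p = 0.924) and Tyk2 (0.25, SE 0.11, adjusted p = 0.15) did not pass. Genes listed under nucleic acid sensing and IRF3 activation, which also include negative regulators such as Trex1 and Nlrx1, were lower in 8 of 19 (median 0.07), with 0 called. The promoter motif occurred in 1 of 13 receptor and JAK-STAT promoters (7.69%).

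Interferon-induced genes outside the 47 were lower with them. Of 54 tested, 45 were lower on collagen (median -0.42), where 47.9% of all tested genes were. By edgeR's test 14 fell and 2 rose, beside 1.54% and 4.42% of all tested genes. Fitted with no filter, 6 of 69 fell and 0 rose, beside 0.158% and 0.167% of genes. Non-overlap of all collagen and all uncoated libraries held for 0 of the 54, beside 0.151% downward and 0.0922% upward. The median deviation of this list from PLLA -US was -0.75 in the uncoated PLLA/ZnO +US replicate 3. It was -0.62, -0.38 and -0.79 in PLLA/ZnO@Col -US and -0.55, -0.54 and -0.33 in PLLA/ZnO@Col +US. The 5 with the smallest p were GTPase genes: Gbp10 (-2.15, SE 0.32, adjusted p = 0.00686), Tgtp2 (-0.90, SE 0.17, adjusted p = 0.0122), Gbp6 (-1.67, SE 0.32, adjusted p = 0.013), Gbp9 (-1.46, SE 0.29, adjusted p = 0.0141) and Gbp4 (-1.83, SE 0.37, adjusted p = 0.0141). The Gbp genes of chromosome 5 are close copies, and reads may be split among them. Ccl5, a chemokine gene, fell as well (-1.71, SE 0.47, adjusted p = 0.0451). It was at 1.67, 11.8 and 2.18 FPKM in PLLA/ZnO@Col -US and 2.23, 28 and 34.2 in PLLA/ZnO@Col +US, so its low values were in PLLA/ZnO@Col -US and in the +US library lacking Y-linked reads, and the other +US libraries were inside the uncoated range of 18.2 to 50.3 FPKM. Pml, the scaffold of the nuclear bodies that contain SP100, rose (0.40, SE 0.09, adjusted p = 0.0263), as did Isg20l2, a nucleolar exonuclease (0.30, SE 0.08, adjusted p = 0.0407). At each ultrasound condition 0 of this list passed, as did 0 of 11936 genes (0%). Without ultrasound 44 of the 54 were lower, beside 45% of all tested genes, and with it 35 of the 54 were, beside 49.6%. Without ultrasound the smallest p-values were those of Gbp10 (-2.37, SE 0.49, adjusted p = 0.0723), Irgm2 (-0.97, SE 0.24, adjusted p = 0.113), Gbp4 (-2.35, SE 0.58, adjusted p = 0.115), Tgtp2 (-1.05, SE 0.26, adjusted p = 0.116) and Ccl5 (-2.96, SE 0.76, adjusted p = 0.121). With ultrasound they were those of Gbp10 (-1.83, SE 0.48, adjusted p = 0.391), Nt5c3 (-0.68, SE 0.25, adjusted p = 0.438), Pml (0.40, SE 0.16, adjusted p = 0.457), Mndal (-1.06, SE 0.41, adjusted p = 0.457) and Gbp6 (-1.24, SE 0.49, adjusted p = 0.457). The motif occurred in 32 of 57 promoters of this list (56.1%).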

How the data were processed

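PolyA RNA of MC3T3-E1 cells was sequenced in 18 libraries, 3 in each of 6 groups, with 48307580 to 78039543 counts per library. The authors deposited whole-number counts and FPKM values per gene, per the file headers. Per the submitters' processing notes, cutadapt 1.9, FastQC and build GRCm38 were used. Aligner, counter and strand setting were not given in the sources used here.

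Genes with FPKM of 1 or more in at least 3 libraries (11936 of 30452) were tested on the deposited counts with edgeR 4.0.16 (R 4.3.3), with TMM scaling, 1 model of the 6 groups (12 residual df) and the quasi-likelihood test, at a Benjamini-Hochberg adjusted p of 0.05 over all tested genes. The scripts were tested on simulated data for collagen without ultrasound. Of 50 genes changed 1.5-fold 5 were recovered, of 50 changed 2-fold 19, and of 50 changed 3-fold 42, with 6 false calls. A member that was not called is therefore not shown to be unchanged. Alternatives used DESeq2 1.42.0, limma 3.58.1 on log2(FPKM + 1) or log2(FPKM + 0.1), RLE scaling, other filters, a replicate block and fewer libraries. The biological coefficient of variation was 0.28. Any 2 libraries differed by more than sampling noise (lowest chi-square per degree of freedom 15.85). Genes named with all values were the 2 highest in mean FPKM of each role and the 3 smallest p-values of each comparison; pathway genes were the receptor genes, the kinases, Ifnb1 and the 5 smallest p-values of the collagen comparisons. One gene of that rule is not reported here. Other names were picked with their values in view. The members and lists were chosen with earlier results of these data known. Same-numbered replicates did not all deviate together and were not treated as pairs, although some pairing is not excluded.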

Additional observations from a re-analysis of the deposited data

How the results depend on the processing

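On collagen against the uncoated groups, 37 of the 38 tested members were lower with the replicate block too. The 45 pairs of same-numbered libraries gave correlations of -0.513 to 0.731 (median 0.0639), of which 21 were over 0.1. The 90 other-numbered pairs gave -0.68 to 0.544 (median -0.0246), of which 32 were over 0.1. Same-numbered libraries were thus somewhat more alike, and pairing is not excluded. For collagen against the uncoated groups, limma on log2(FPKM + 1) gave a median of -0.477. The fit without the 3 libraries lacking Y-linked reads gave -0.61, with replicate 2 alone in PLLA/ZnO@Col -US. For collagen without ultrasound, DESeq2 called 15, limma on log2(FPKM + 1) gave a median of -0.578, leaving out those 3 libraries gave 7 called and a median of -0.942, and leaving out all 7 low in Y-linked reads gave 21 and -0.931. Without the 3, ultrasound on collagen gave 1 called and a median of 0.342, and its difference from PLLA/ZnO a median of 0.624. Leaving out 1 library at a time gave these ranges: collagen against uncoated, 5 to 26 called and medians of -0.662 to -0.542; collagen without ultrasound, 0 to 14 and -0.796 to -0.631; collagen with ultrasound, 0 and -0.399 to -0.262; zinc oxide without ultrasound, 0 and -0.081 to 0.0992, and with it, 0 and -0.288 to -0.0252; ultrasound on PLLA, 0 and -0.184 to -0.0598, on PLLA/ZnO, 0 and -0.453 to -0.218, and on collagen, 0 to 1 and 0.0671 to 0.211; and the difference, 0 and 0.324 to 0.557. The share of all tested genes called moved with these counts. For collagen against uncoated it was 0.251% beside the 5 and 24.8% beside the 26, and without ultrasound it was 8.7% beside the 14. The cause of these changes was not tested. Of the single-gene results under the alternatives, 1218 kept direction and side of the threshold, 35 passed it, 105 no longer did and 0 reversed. The genes counted had the smallest p-values of a comparison or were members that fell on collagen, all picked in the main fit. The alternatives reuse the same libraries, so the absence of reversals is no separate support. A fit of only the groups compared gives no separate value for the average comparison, and leaving out all 7 libraries none where PLLA/ZnO@Col +US is needed. The comparison with PLLA/ZnO only and the fit without the 4 intermediate libraries were chosen after seeing the data.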
